A study of Mus musculus with 12 samples.

Results

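Expression of 10 genes of the major histocompatibility complex (MHC) pathways was followed through sorted mammary epithelial cells of the mouse: H2-K1, H2-D1, B2m, Tap1 and Tap2 for class I, and Cd74, H2-Aa, H2-Ab1, H2-Eb1 and Ciita for class II. The genes were chosen by name, as the rows of a table of read counts that carry these symbols. All 10 were found among its 53735 symbols, and 9 of them held enough counts to be tested, H2-Eb1 being the exception. MHC class I molecules display peptides from inside the cell to CD8 T cells. They are built from a heavy chain and beta-2 microglobulin and are loaded in the endoplasmic reticulum, where the TAP transporter delivers the peptides. MHC class II molecules present peptides from outside the cell to CD4 T cells, are carried mainly by B cells, macrophages and dendritic cells, and can be induced in epithelia by interferon gamma through the transactivator CIITA.

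The 12 libraries were total RNA of live cells sorted by CD24 and CD49f, and they fall into 4 groups of 3 by genotype (WT or MMTVRANK) and population (basal or luminal). In MMTVRANK mice the promoter of mouse mammary tumour virus drives Rank, the receptor encoded by Tnfrsf11a. WT mice lack the transgene, and no treatment is given for any group. The labels used here state no age, sex or strain, do not say whether a library pools animals, and name no sorting step against leukocytes.

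Total counts lay between 12459547 and 15069578 per library. Levels are given in CPM (read counts relative to the TMM-scaled library total), and comparisons between genes use CPM per kilobase of exon. Summed luminal markers stood at 8024 to 24041 CPM in the libraries titled luminal and 553 to 839 CPM in those titled basal, and basal markers at 46.7 to 350.0 and 21625 to 28871 CPM. Both WT replicate 2 libraries, whose title and cell subtype fields name opposite populations, lay with their titles, which were used. Tnfrsf11a stood at 129 to 415 CPM in the 6 MMTVRANK libraries and at 6.36 to 73.7 CPM in WT replicates 1 and 3, but at 158 and 90.8 CPM in the basal and luminal libraries labelled WT replicate 2. The first of these lies within the MMTVRANK range and goes against its genotype label, and the second lies between the genotypes, so calls and genotype values were also computed without both. Replicates are not stated to be separate animals, and p-values measure only the spread between these libraries, which may be technical. MMTVRANK luminal replicate 3 carried leukocyte transcripts, described with the class II genes. Among the luminal libraries it also had the lowest luminal marker sum (8024 CPM, the others 12852 or more), the highest basal marker sum (350.0 CPM, the others 113 or less) and the highest fibroblast marker sum (239 CPM, the others 137 or less). The part of these in its MHC levels was not tested, and results are given with and without it.

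Of the 10 genes, 7 lie in the MHC region of chromosome 17 (build GRCm38.p6, coordinates of the deposited annotation). From the centromeric side these are H2-K1 (chr17:33996017-34000333, minus strand), Tap1 (chr17:34187553-34197225, plus), Tap2 (chr17:34203527-34216321, plus), H2-Ab1 (chr17:34263209-34269418, plus), H2-Aa (chr17:34282744-34287827, minus), H2-Eb1 (chr17:34305877-34316199, plus) and H2-D1 (chr17:35262730-35267499, plus). B2m lies at chr2:122147686-122153083 on the plus strand and Ciita at chr16:10480059-10528418 on the plus strand. Cd74 lies outside the MHC region.

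Class I and class II promoters are known to share a control region, the SXY module, whose X2 and Y boxes are bound by factors that recruit CIITA or its class I relative NLRC5. The RefSeq promoter table (GRCm38.p6) held 6 of the 10 genes (H2-K1, H2-D1, B2m, Tap1, H2-Aa and H2-Eb1). The stretches below, from RefSeq, show this shared layout in a class I light chain, a class I heavy chain and a class II chain, read 5′ to 3′ on the strand of the gene. In each, capitals mark an X2-like TGANG and a Y box ATTGG, a kB-like element (GGG, any 5 bases, CCC) and, where present, an interferon element (GAAA, any 2 bases, GAAA, or in the class I form GAANNGAAA). The class I form in H2-K1 matches on the opposite strand, so its capitals read as the reverse complement. The B2m stretch is chr2:122147507-122147685 on the plus strand, the H2-K1 stretch chr17:34000348-34000527 on the minus strand and the H2-Aa stretch chr17:34287828-34288003 on the minus strand, each ending just before the RefSeq start.
B2m promoter: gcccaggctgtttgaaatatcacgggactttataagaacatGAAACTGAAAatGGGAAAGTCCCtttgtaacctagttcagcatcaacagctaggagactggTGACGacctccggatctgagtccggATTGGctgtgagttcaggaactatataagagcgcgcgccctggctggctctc
H2-K1 promoter: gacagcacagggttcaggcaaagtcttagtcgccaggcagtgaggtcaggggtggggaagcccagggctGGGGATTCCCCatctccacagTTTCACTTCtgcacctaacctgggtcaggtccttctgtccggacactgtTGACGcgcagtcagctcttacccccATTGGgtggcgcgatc
H2-Aa promoter: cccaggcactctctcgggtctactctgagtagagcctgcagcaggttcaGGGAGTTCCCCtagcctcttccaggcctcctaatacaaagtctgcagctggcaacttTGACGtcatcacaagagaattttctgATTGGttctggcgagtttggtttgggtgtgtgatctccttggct

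The X2 and Y letters stood 15 to 25 bases apart, a range set in the search, in 5 genes, shown here on their own to compare class I with class II. H2-D1 and H2-Eb1 each held a second, longer match, and the shorter is shown. The blocks of H2-D1 (chr17:35262993-35263022) and H2-Eb1 (chr17:34305784-34305812) are on the plus strand, and the H2-D1 block lies inside the deposited gene model, which begins upstream of the RefSeq start.
B2m block: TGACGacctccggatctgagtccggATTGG
H2-K1 block: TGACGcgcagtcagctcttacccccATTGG
H2-D1 block: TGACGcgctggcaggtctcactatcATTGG
H2-Aa block: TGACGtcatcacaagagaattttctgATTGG
H2-Eb1 block: TGATGctggactcctttgatgctgATTGG
Searched on both strands, TGANG followed after 15 to 25 bases by ATTGG was in 5 of the 6 promoters, Tap1 being without it, and in 2.79% of 32851 RefSeq promoter windows of 300 bases. This spacing was chosen after the sequences had been seen. ATTGG alone was in 6 of 6 and in 37.4% of windows, and it is part of the block just described. The kB-like letters were in 5 of 6 (not H2-Eb1) against 14% of windows. The interferon element GAAA, any 2 bases, GAAA was in B2m alone against 3.44%, and GAANNGAAA in H2-K1 and H2-D1 against 7.52%. These matches describe letters and not bound sites.

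The comparison of luminal with basal cells asked how far the MHC genes differ between the 2 epithelial layers, and it was made within each genotype. The class I heavy chains, their light chain and Tap2 were higher in luminal cells, by 2.51-fold to 7.02-fold in WT and 2.90-fold to 4.45-fold in MMTVRANK, while Tap1 did not pass the test in either genotype. In WT, 4 of the 9 genes tested rose and none fell (edgeR quasi-likelihood test, adjusted p under 0.05), where 18% of all 18236 genes tested rose and 20% fell. In MMTVRANK, 4 of 9 rose and none fell, against 16.1% and 17% of all genes. All luminal libraries lay above all basal ones for 4 of the 9 genes and below them for 1 (Ciita) in WT, where 22.3% and 23.8% of all genes did so, and for 4 and none in MMTVRANK, against 27.7% and 26.8%. With all 12 libraries, edgeR and limma-voom called none of the 4 class II genes tested in either genotype (unpaired fits of filtered genes). There edgeR called 38.1% of all genes in WT and 33.2% in MMTVRANK in either direction. DESeq2 did not call Cd74 and gave no adjusted p for H2-Aa, H2-Ab1 and Ciita. By an unadjusted p under 0.05, 1 of the 4 passed in WT (Ciita) and 1 in MMTVRANK (H2-Ab1), against 46.7% and 42.3% of all genes. With the replicate number as a block edgeR called Ciita in WT (−4.05, adjusted p = 0.0259). Without MMTVRANK luminal replicate 3 it called Ciita in both genotypes (adjusted p = 0.00387 in WT and 0.0212 in MMTVRANK). Without MMTVRANK luminal replicate 1 or 2 it called Ciita in WT (adjusted p = 0.0163 and 0.0458). With no filter on low counts it called Ciita and Cd74 in WT (adjusted p = 1.27e-05 and 1.83e-04), and Cd74, H2-Aa, H2-Ab1 and Tap1 in MMTVRANK (adjusted p at most 0.00817). In that setting 7000 of all genes were called in WT and 6091 in MMTVRANK. In sorted bulk RNA, fewer cells expressing a gene and less RNA per cell cannot be told apart.

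H2-K1 encodes one of the classical heavy chains. It stood at 165, 222 and 279.6 CPM in WT basal replicates 1, 2 and 3 and at 521, 626 and 524 CPM in WT luminal ones. In MMTVRANK it stood at 122, 256 and 299 CPM in basal and 583, 765 and 1041 CPM in luminal libraries. All luminal libraries lay above all basal libraries of the same genotype. The log2 fold change, luminal minus basal, was 1.33 in WT (SE 0.32, n = 3 per group, adjusted p = 0.00574) and 1.82 in MMTVRANK (SE 0.32, adjusted p = 9.06e-04). Without both WT replicate 2 libraries the WT value was 1.24 with adjusted p = 0.0511, which ends that call, and over the alternatives its adjusted p ranged from 1.48e-08 to 0.0511.

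H2-D1 encodes the other classical heavy chain of the set. Its level was 343, 448 and 633 CPM in WT basal against 1366, 1359.8 and 1149 CPM in WT luminal libraries. In MMTVRANK it was 269.5, 535 and 632 CPM in basal against 1173, 1419 and 1581 CPM in luminal libraries. Again no luminal library reached down to the basal range. The log2 fold change was 1.44 in WT (SE 0.30, adjusted p = 0.00224) and 1.54 in MMTVRANK (SE 0.30, adjusted p = 0.00167).

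B2m encodes the light chain that all class I heavy chains share. It had 259, 387 and 548 CPM in WT basal and 975, 999.7 and 1522 CPM in WT luminal libraries. MMTVRANK basal libraries had 213, 496 and 625 CPM and MMTVRANK luminal libraries 1393, 2291 and 2251 CPM. The rise was 1.55 on the log2 scale in WT (SE 0.39, adjusted p = 0.00860) and 2.15 in MMTVRANK (SE 0.40, adjusted p = 0.00145). Within the basal groups of both genotypes, replicate 1 was the lowest library and replicate 3 the highest for all of H2-K1, H2-D1 and B2m, as the plot of levels by library shows.

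**Figure D1:**
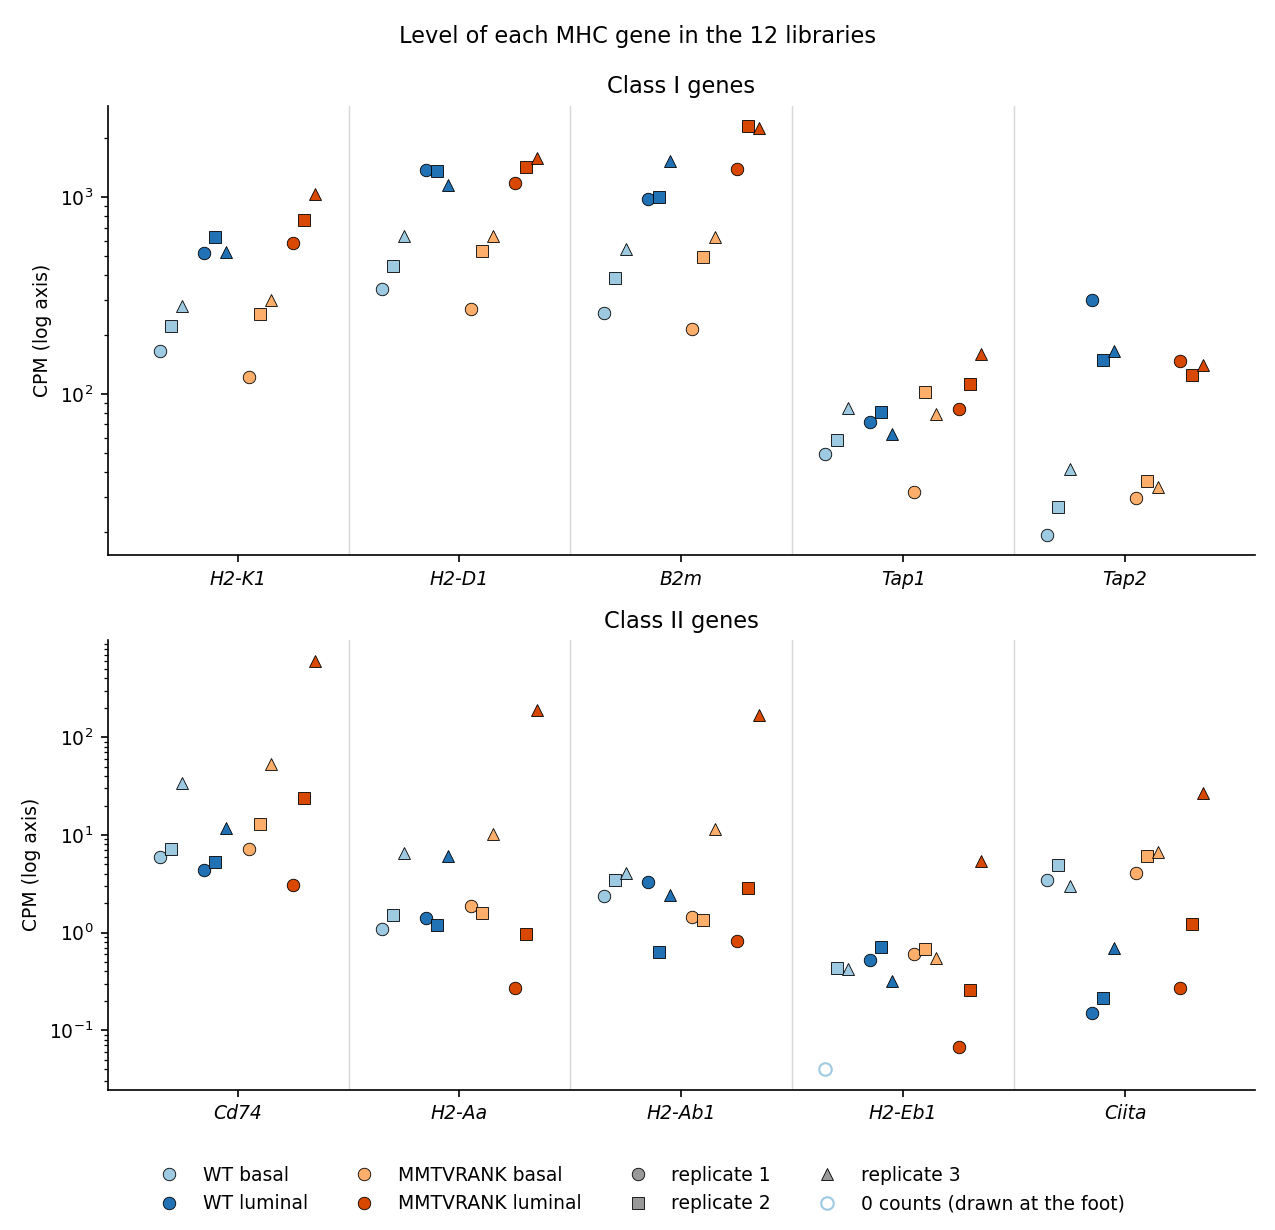
Level of each of the 10 genes in CPM on a log axis (vertical) for the 12 libraries, coloured by group and shaped by replicate, with class I genes above and class II genes below. The luminal libraries lie above the basal libraries of their genotype for H2-K1, H2-D1, B2m and Tap2, while MMTVRANK luminal replicate 3 stands above all others for the 5 class II genes. The open circle marks H2-Eb1 at 0 counts in WT basal replicate 1.

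The peptide transporter is a dimer of the Tap1 and Tap2 products, and its 2 genes differed in their test results. Tap2 stood at 19.3, 26.6 and 41.8 CPM in WT basal and 300.4, 149 and 165 CPM in WT luminal libraries. In MMTVRANK it stood at 29.6, 36.2 and 33.7 CPM in basal and 146, 125 and 140.3 CPM in luminal libraries. These groups are far apart in both genotypes, with a log2 fold change of 2.81 in WT (SE 0.31, adjusted p = 2.69e-05) and 2.05 in MMTVRANK (SE 0.30, adjusted p = 2.32e-04).

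Tap1 stood at 49.6, 58.6 and 85.2 CPM in WT basal and 71.9, 81.1 and 62.5 CPM in WT luminal libraries. MMTVRANK basal libraries had 31.9, 102 and 79.0 CPM and luminal ones 84.1, 112 and 159.7 CPM. The groups overlap in both genotypes, and the values were 0.16 (SE 0.37, adjusted p = 0.776) and 0.74 (SE 0.37, adjusted p = 0.154). Per kilobase, Tap1 and Tap2 stood at 11.8 ± 3.39 and 7.72 ± 3.04 in WT basal cells and at 13.1 ± 1.70 and 54.2 ± 22.003 in WT luminal cells (SD, n = 3). Whether the luminal effects of the 2 genes differ was not tested.

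Some reads of these genes cannot be assigned without doubt, since the counting used no strand option. Tap1 shares 212 of its 5476 exon bases with Psmb9 on the opposite strand, and Psmb9 rose in luminal cells in both genotypes. Tap2 shares 533 and 165 of 3781 exon bases with 2 opposite clone models that held 0 to 30 counts per library. Of the 50-base words in the transcripts of H2-K1, H2-D1 and Tap2, 9.63%, 12.8% and 11.6% also occur in another gene, most often H2-Q10, H2-Q1 and Gm15821. The counts of H2-K1, H2-D1 and Tap2 are uncertain for this reason, and the share of reads affected was not measured. B2m, Cd74, H2-Ab1 and H2-Eb1 share none. The counts follow the reference haplotype, and how reads of another MHC haplotype would align was not tested.

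Within the class I set the order by level per kilobase was B2m, H2-D1 and H2-K1 in all 4 groups. In WT luminal cells the means were 1356 ± 359, 501 ± 47.9 and 213 ± 23.1 CPM per kilobase (SD, n = 3), followed by Tap2 and Tap1, and no library of one gene reached that of its neighbour in this order. In WT basal cells they were 463 ± 169, 184 ± 57.0 and 85.2 ± 22.01 CPM per kilobase, and Tap1 and Tap2 overlapped there. Without MMTVRANK luminal replicate 3, the MMTVRANK values for luminal minus basal were 1.58 for H2-K1, 1.44 for H2-D1, 2.05 for B2m and 2.03 for Tap2, with adjusted p between 7.95e-04 and 0.00492, and 0.47 for Tap1 (adjusted p = 0.433).

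**Figure D2:**
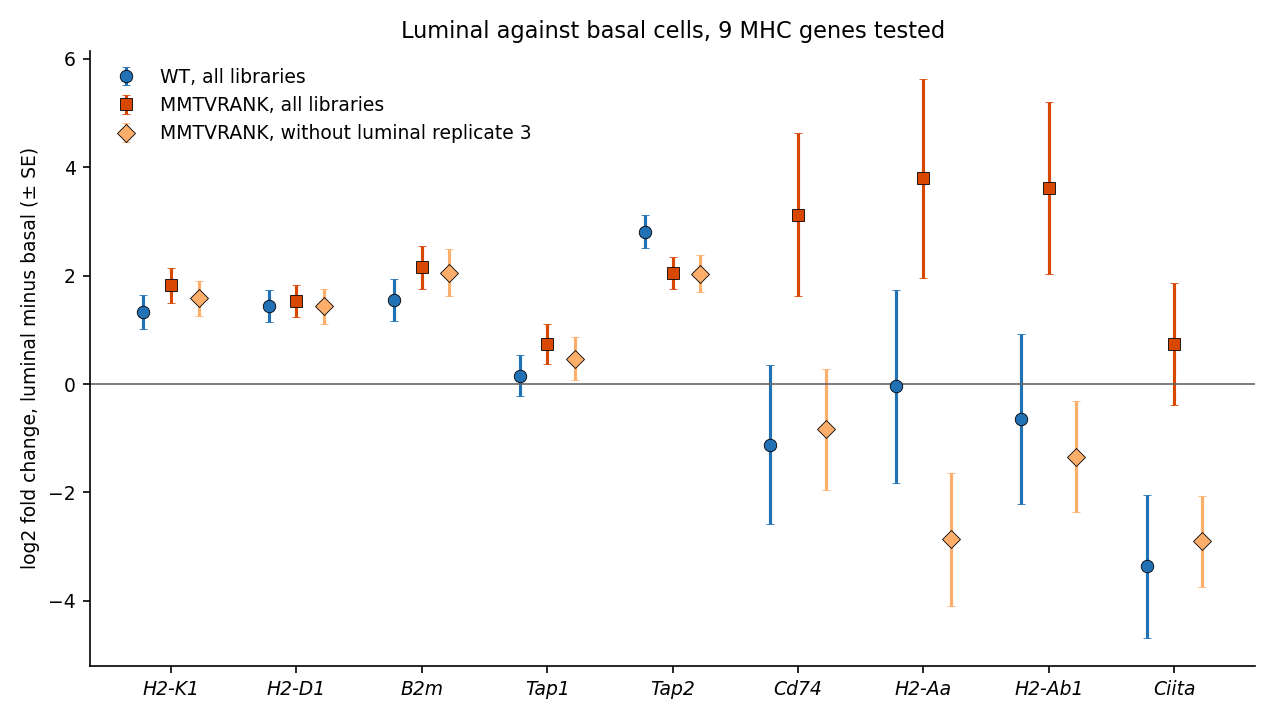
The log2 fold change of luminal minus basal cells (vertical, bars are ± SE) for the 9 genes tested, in WT, in MMTVRANK, and in MMTVRANK without luminal replicate 3. The class I values stay above 0 when that library is left out, while Cd74, H2-Aa, H2-Ab1 and Ciita go from 3.12, 3.80, 3.61 and 0.73 to values below 0. With the third library of every group left out (not drawn), Cd74 and H2-Ab1 have 0.40 and 0.39, and H2-Aa and Ciita −1.50 and −2.78.

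The wider class I pathway was read from a list of 25 other genes: nonclassical heavy chains, immunoproteasome subunits, the peptide loading complex and the regulator Nlrc5. All 25 were tested. In WT, 15 rose and none fell, where 18% of all genes rose and 20% fell, and the median log2 fold change was 1.34 against −0.07 over all genes. In MMTVRANK, 16 rose and none fell, where 16.1% of all genes rose and 17% fell, with a median of 1.48 against 0.05. Without MMTVRANK luminal replicate 3 the MMTVRANK count was 16 and its median 1.38.

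The immunoproteasome subunit Psmb9, which replaces a constitutive subunit when peptides for class I are cut, went from 5.57 ± 3.00 CPM in WT basal to 48.8 ± 6.92 CPM in WT luminal cells (SD, n = 3). Its log2 fold change was 3.13 in WT (SE 0.38, adjusted p = 4.98e-05) and 3.10 in MMTVRANK (SE 0.38, adjusted p = 5.31e-05). Psme1, a subunit of the PA28 proteasome activator, went from 86.8 ± 9.48 to 309 ± 90.2 CPM in WT (1.83, SE 0.21, adjusted p = 3.44e-05) and rose by 1.73 in MMTVRANK. Its partner Psme2 rose by 2.14 in MMTVRANK (SE 0.31, adjusted p = 2.02e-04).

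Among nonclassical heavy chains, H2-Q2 went from 3.64 ± 1.14 to 32.2 ± 5.77 CPM in WT, a value of 3.15 (SE 0.32, adjusted p = 1.58e-05), and rose by 2.81 in MMTVRANK. H2-T10 went from 6.15 ± 1.45 to 24.7 ± 1.67 CPM in WT, a value of 2.00 (SE 0.26, adjusted p = 8.10e-05). Class I relatives share sequence, so reads can be split between them. Nlrc5, the class I transactivator, was picked out after its values were seen: it stood at 96.0 ± 83.7 CPM in WT basal and 38.0 ± 20.6 CPM in WT luminal cells, a value of −1.34 (SE 0.84, adjusted p = 0.246), and had −0.49 in MMTVRANK.

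**Figure D3:**
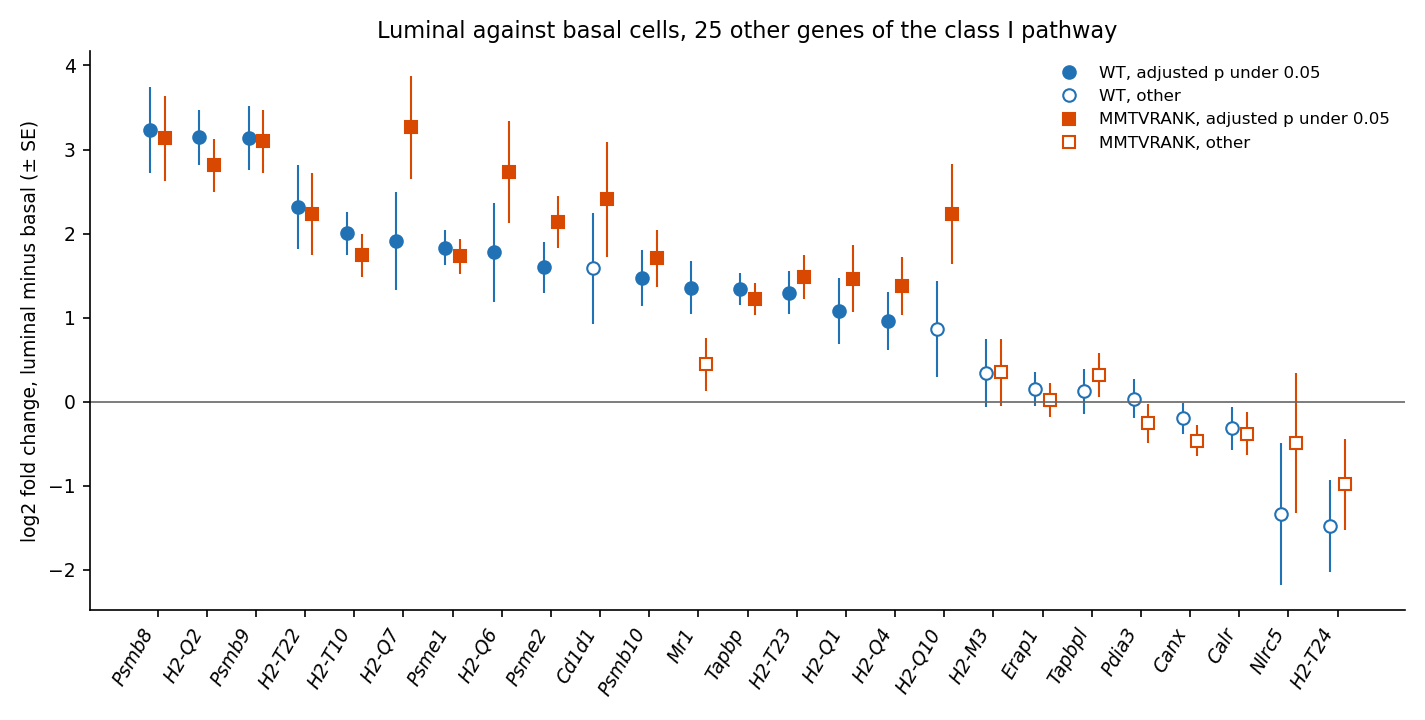
The log2 fold change of luminal minus basal cells (vertical, bars are ± SE) for the 25 other class I pathway genes, ordered by the WT value, with filled symbols at an adjusted p under 0.05. In WT 15 genes are filled and in MMTVRANK 16, all above 0. The chaperones Calr, Canx and Pdia3, which also serve other proteins, are open in both genotypes.

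Class II transcripts were low in most libraries and high in one. In the 5 class II genes together, MMTVRANK luminal replicate 3 held 1005 CPM, 12.3 times the next library (MMTVRANK basal replicate 3, 81.9 CPM) and 78.8% of the sum over the 12 libraries. The other 11 libraries lay between 4.49 and 81.9 CPM. For class I, that library was also the highest for Tap1 (1.42 times the next library), H2-K1 (1.36 times) and H2-D1 (1.11 times), and for B2m it was second.

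Cd74 encodes the invariant chain, which fills the class II groove during assembly. It stood at 5.88, 7.13 and 33.9 CPM in WT basal and 4.42, 5.25 and 11.7 CPM in WT luminal libraries. In MMTVRANK it stood at 7.26, 13.1 and 52.9 CPM in basal and 3.06, 23.97 and 610.3 CPM in luminal libraries. In every group replicate 3 was the highest. Luminal minus basal was −1.12 in WT (SE 1.46, adjusted p = 0.589) and 3.12 in MMTVRANK (SE 1.503, adjusted p = 0.140). Without MMTVRANK luminal replicate 3 the latter was −0.84 (SE 1.12, adjusted p = 0.641). With the third library of every group left out it was 0.40 (SE 0.78, adjusted p = 0.760).

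H2-Aa and H2-Ab1 encode the alpha and beta chains of the class II molecule I-A. H2-Aa had 1.08, 1.51 and 6.50 CPM in WT basal, 1.42, 1.21 and 6.04 CPM in WT luminal libraries, and in MMTVRANK 1.89, 1.60 and 10.3 CPM in basal and 0.272, 0.959 and 192 CPM in luminal ones. Replicate 3 was again the highest library of each group, and replicates 1 and 2 of all groups lay below 2 CPM. H2-Ab1 had 2.40, 3.46 and 4.11 CPM in WT basal, 3.29, 0.638 and 2.41 CPM in WT luminal libraries, and in MMTVRANK 1.44, 1.35 and 11.4 CPM in basal and 0.817, 2.88 and 171 CPM in luminal ones. In MMTVRANK the luminal minus basal values were 3.80 (SE 1.84, adjusted p = 0.142) and 3.61 (SE 1.59, adjusted p = 0.108). They were −2.87 (adjusted p = 0.103) and −1.34 (adjusted p = 0.378) without MMTVRANK luminal replicate 3, so their direction rests on 1 library. In WT, with all libraries, H2-Aa and H2-Ab1 had −0.04 and −0.65 (adjusted p = 0.988 and 0.780).

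H2-Eb1 encodes the beta chain of the class II molecule I-E. It held 0, 6 and 5 counts in WT basal, 7, 10 and 5 in WT luminal libraries, and in MMTVRANK 8, 8 and 7 in basal and 1, 4 and 92 in luminal ones. The 0 in WT basal replicate 1 allows up to 0.232 CPM (3 counts, counting error only). It did not pass the filter on low counts and was not tested. Per kilobase it stood at 4.55 CPM in MMTVRANK luminal replicate 3, where H2-Aa and H2-Ab1 stood at 102 and 104 CPM.

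Ciita, the transactivator that class II genes depend on, showed a different layout from the chains. It stood at 3.48, 4.90 and 3.00 CPM in WT basal and 0.1497, 0.213 and 0.699 CPM in WT luminal libraries (2, 3 and 11 counts). In MMTVRANK it stood at 4.08, 6.15 and 6.74 CPM in basal and 0.272, 1.21 and 26.7 CPM in luminal libraries. All basal libraries thus lay above the luminal ones apart from MMTVRANK luminal replicate 3. Luminal minus basal was −3.37 in WT (SE 1.32, adjusted p = 0.0645), which did not pass, and over the alternatives its adjusted p ranged from 1.27e-05 to 0.246. With the replicate number as a block it was −4.05 with adjusted p = 0.0259, and it passed without MMTVRANK luminal replicate 1, 2 or 3, with adjusted p between 0.00387 and 0.0458.

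In MMTVRANK the Ciita value was 0.73 (SE 1.13, adjusted p = 0.664) with all libraries. Without MMTVRANK luminal replicate 3 it was −2.90 (SE 0.85, adjusted p = 0.0212), so in the unpaired edgeR fit its direction and call changed with that library. With all libraries it was also below 0 by limma-voom (−1.22, adjusted p = 0.390) and with the replicate block (−0.53, adjusted p = 0.757), not called in either. Ciita shares 329 of its 9535 exon bases with Dexi on the opposite strand, which stood at 9.498 to 14.4 CPM in basal and 5.75 to 12.3 CPM in luminal libraries, and the part of Dexi reads in the Ciita value was not tested.

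The order of the class II genes per kilobase was read in each group. In WT luminal cells Cd74 led with 5.05 ± 2.82 CPM per kilobase (SD, n = 3), followed by H2-Aa (1.54 ± 1.46), H2-Ab1 (1.29 ± 0.826) and H2-Eb1 (0.437 ± 0.166), the last 3 overlapping their neighbours, and Ciita was the lowest (0.0371 ± 0.0315). In WT basal cells Cd74 stood at 11.1 ± 11.2, H2-Ab1 at 2.03 ± 0.527 and H2-Aa at 1.62 ± 1.61, and Ciita (0.398 ± 0.104) and H2-Eb1 (0.242 ± 0.210) overlapped at the foot. In MMTVRANK basal cells the order was Cd74 (17.3 ± 17.6), H2-Ab1 (2.90 ± 3.54), H2-Aa (2.46 ± 2.65), Ciita (0.593 ± 0.146) and H2-Eb1 (0.515 ± 0.0534), with all neighbours overlapping except H2-Aa and Ciita. In MMTVRANK luminal cells it was Cd74 (151 ± 244), H2-Ab1 (35.5 ± 59.6), H2-Aa (34.3 ± 58.9), H2-Eb1 (1.61 ± 2.55) and Ciita (0.986 ± 1.57), means set by replicate 3, and all neighbours overlapped.

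Leukocyte markers were read beside the class II genes. The summed pan-leukocyte list of 16 genes stood at 45.5 to 51.9 CPM in WT basal, 161 to 199 CPM in WT luminal and 45.8 to 100.04 CPM in MMTVRANK basal libraries, and at 173, 176 and 465 CPM in MMTVRANK luminal replicates 1, 2 and 3. Of its 16 genes, 0, 4 and 0 were at 0 counts in these 3 libraries. Ptprc (CD45), which defines leukocytes, had 12, 6 and 831 counts there, and 2 to 156 counts in the other 9 libraries. Lcp1 made up most of the sum in the other 5 luminal libraries and stood at 106 to 182 CPM over the 6, and both it and Ptpn6 rose in luminal cells in both genotypes (adjusted p between 2.13e-06 and 1.36e-04).

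The B cell list of 10 genes summed to 1.16, 0.448 and 103 CPM in MMTVRANK luminal replicates 1, 2 and 3, with 4, 6 and 0 of its genes at 0 counts, and to 0.780 to 27.1 CPM in the other libraries. Ighm, the IgM heavy chain, had 2, 2 and 714 counts. The macrophage and monocyte list of 14 genes summed to 169, 186 and 788 CPM, with 3, 3 and 0 genes at 0, against 16.1 to 310.1 CPM elsewhere, while its member Cd14 was itself higher in luminal than in basal cells. T and NK cell markers summed to 6.40, 6.33 and 23.96 CPM and dendritic cell markers to 4.76, 16.5 and 88.9 CPM, the latter against 54.3 to 95.8 CPM in WT basal libraries. The part of leukocyte RNA in the class II values was not tested. Between genotypes the pan-leukocyte sum averaged 272 CPM in MMTVRANK against 177 CPM in WT luminal libraries, and 63.9 against 49.3 CPM in basal ones. The unpaired two-sided exact permutation test over 3 against 3 libraries gave p = 0.5 and 0.8 (both 0.8 after adjustment over the 2 populations), but it cannot go below 0.1 and so cannot tell whether the genotypes differ.

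**Figure D4:**
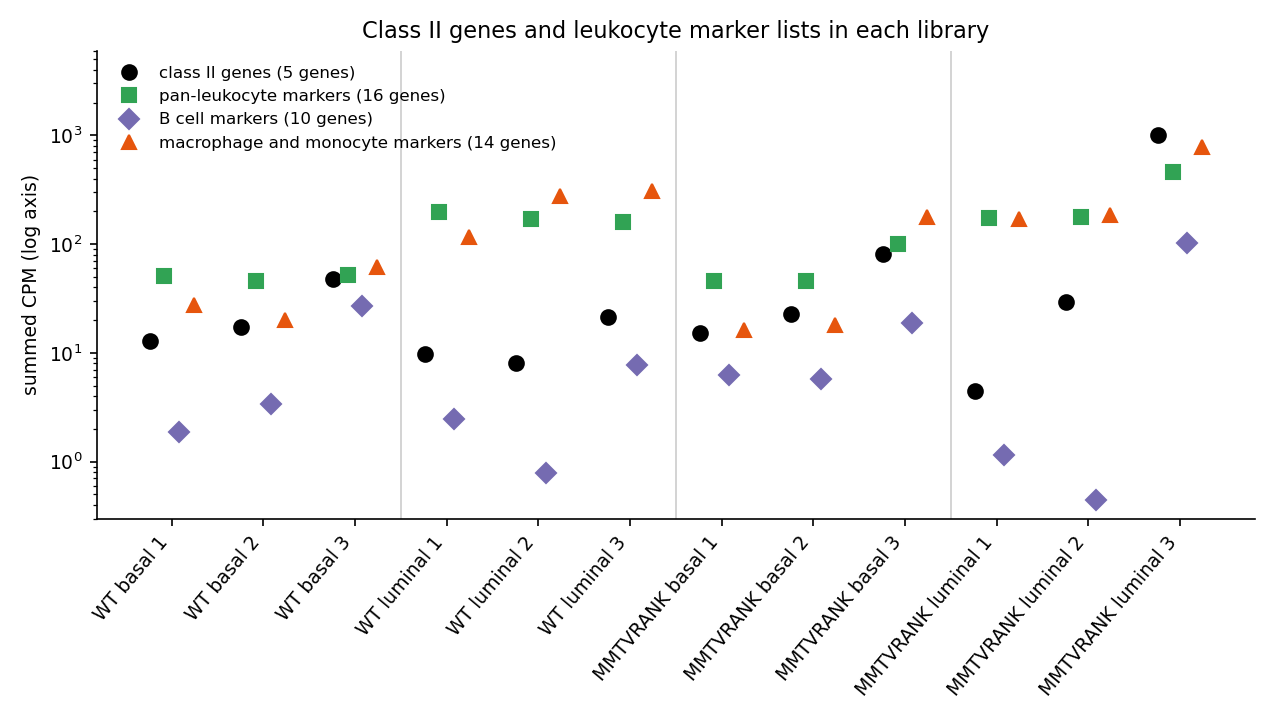
Summed CPM on a log axis (vertical) of the 5 class II genes and of the pan-leukocyte, B cell, and macrophage and monocyte marker lists in each of the 12 libraries, grouped by vertical lines. In MMTVRANK luminal replicate 3 the class II sum is 1005 CPM and the B cell sum 103 CPM, and both are at or below 29.3 CPM in the other luminal libraries.

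Of a list of 18 other class II pathway genes, 14 were tested. In WT, 5 rose and 1 fell in luminal cells, where 18% of all genes rose and 20% fell, with a median of 1.02 against −0.07 over all genes. In MMTVRANK 3 rose and none fell, where 16.1% of all genes rose and 17% fell, with a median of 2.08 against 0.05. Without MMTVRANK luminal replicate 3, 2 rose and the median was 0.95, so the rises in MMTVRANK are near the share over all genes. H2-DMa and H2-DMb1 encode chains of the chaperone that exchanges peptides on class II molecules. H2-DMa went from 3.29 ± 0.662 to 12.8 ± 6.86 CPM in WT (1.96, SE 0.42, adjusted p = 0.00303) and H2-DMb1 from 2.76 ± 1.04 to 12.5 ± 3.48 CPM (2.18, SE 0.39, adjusted p = 8.85e-04). In MMTVRANK they rose by 1.90 and 1.87 (adjusted p = 0.00392 and 0.00247).

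Rfx5 and Rfxap encode subunits of the regulatory factor X complex, which binds class II promoters and recruits CIITA. In WT, Rfx5 rose by 0.87 (SE 0.29, adjusted p = 0.0331) and Rfxap fell by 0.89 (SE 0.25, adjusted p = 0.0125), from 15.1 ± 3.49 to 8.16 ± 1.36 CPM. The costimulatory receptor gene Cd40 rose by 2.41 in MMTVRANK (SE 0.84, adjusted p = 0.0427). H2-DMb2 and H2-Ob, picked out after their values were seen, were the other 2 that rose in WT. H2-Ob had 0 counts in all WT basal libraries and was at least 15.2-fold higher in WT luminal cells, against a floor of 3 counts over the basal group, and the list median is 1.02 with it at that bound.

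Interferon gamma induces both classes, and a list of 25 genes of its signalling, of which 24 were tested, was read in the same comparison. In WT 2 of 24 rose and 5 fell, with a median of −0.46, where 18% of all genes rose and 20% fell with a median of −0.07. In MMTVRANK 3 rose and 4 fell, with a median of 0.27, where 16.1% of all genes rose and 17% fell with a median of 0.05. The falls are thus near the share over all genes. Irf1, the transcription factor that carries the signal to class I genes and Ciita, went from 245 ± 33.4 CPM in WT basal to 88.6 ± 10.5 CPM in WT luminal cells (−1.47, SE 0.16, adjusted p = 2.66e-05) and fell by 1.74 in MMTVRANK (adjusted p = 7.60e-06). The kinase gene Jak2 rose by 1.31 and 0.98 (adjusted p = 7.80e-05 and 6.56e-04). Socs1, an inhibitor of the pathway, fell by 3.16 in WT (SE 0.60, adjusted p = 0.00134) and Socs3, another inhibitor, fell by 1.71 in MMTVRANK (adjusted p = 0.00314). Ptpn2, a phosphatase acting on the kinases, rose by 1.25 in WT, and the receptor subunit gene Ifngr2 rose by 1.38 in MMTVRANK (adjusted p = 0.00337 and 0.00491).

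The comparison of MMTVRANK with WT asked how far the MHC genes differ by genotype within each population. In luminal cells none of the 9 genes was called, where 0.252% of all genes were (0.0932% higher and 0.159% lower). By an unadjusted p under 0.05, 4 of the 9 passed (Cd74, H2-Aa, H2-Ab1 and Ciita) against 12% of all genes. DESeq2 called 1, Cd74 (4.84, adjusted p = 0.0242), and gave no adjusted p for H2-Aa, H2-Ab1 and Ciita, and limma-voom called none.

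For the class I genes the luminal values, MMTVRANK minus WT, were 0.52 for H2-K1 (SE 0.31, adjusted p = 0.592), 0.11 for H2-D1 (SE 0.29, adjusted p = 0.964) and 0.76 for B2m (SE 0.39, adjusted p = 0.486). The transporter genes had 0.72 for Tap1 (SE 0.37, adjusted p = 0.499) and −0.58 for Tap2 (SE 0.29, adjusted p = 0.474). All MMTVRANK luminal libraries lay above all WT ones for Tap1 and below them for Tap2, the only 2 of the 9 genes whose groups did not overlap, where 10.1% of all genes were fully above and 6.82% fully below. Between same-numbered luminal libraries, which were read as pairs, H2-K1, B2m and Tap1 were higher in MMTVRANK in 3 of 3. Tap2 was lower in 3 of 3 and H2-D1 went both ways, and of the class II genes Ciita was higher in 3 of 3. The share of all genes with the same direction in 3 of 3 was not computed, so nothing is concluded from these directions. With the replicate block the values were 0.46 for H2-K1, 0.06 for H2-D1, 0.75 for B2m (unadjusted p = 0.0049, adjusted p = 0.146), 0.65 for Tap1 and −0.57 for Tap2, and none was called. With no filter on low counts B2m was called (0.75, adjusted p = 0.0234), where 1353 of all genes were called. Without both WT replicate 2 libraries the 5 values were 0.61, 0.15, 0.66, 0.82 and −0.76, and without MMTVRANK luminal replicate 3 they were 0.24, −0.04, 0.62, 0.41 and −0.64, none called.

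For the class II genes the luminal values were 4.89 for Cd74 (SE 1.64, adjusted p = 0.238), 4.46 for H2-Aa (SE 1.90, adjusted p = 0.377), 4.78 for H2-Ab1 (SE 1.70, adjusted p = 0.265) and 4.67 for Ciita (SE 1.37, adjusted p = 0.179). With the replicate block they were 3.17, 2.45, 2.87 and 3.91, where H2-Aa and H2-Ab1 had unadjusted p = 0.127 and 0.103, and by limma-voom 2.51, 0.97, 2.27 and 2.85, none called. With no filter on low counts all 4 were called at values of 4.45 to 4.88, where 1353 of all genes were called. With the filter and all libraries, the median of the 4 was 4.73 where the median over all genes was 0.03. Without MMTVRANK luminal replicate 3 they were 0.89, −2.24, −0.24 and 1.00 with a median of 0.32, and the adjusted p lay between 0.820 and 1. Without both WT replicate 2 libraries they were 4.71, 4.10, 4.35 and 4.42. The pan-leukocyte markers moved alongside, with a median of 2.28 over the 14 tested and of −1.69 without that library, and their part in the class II values was not tested.

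**Figure D5:**
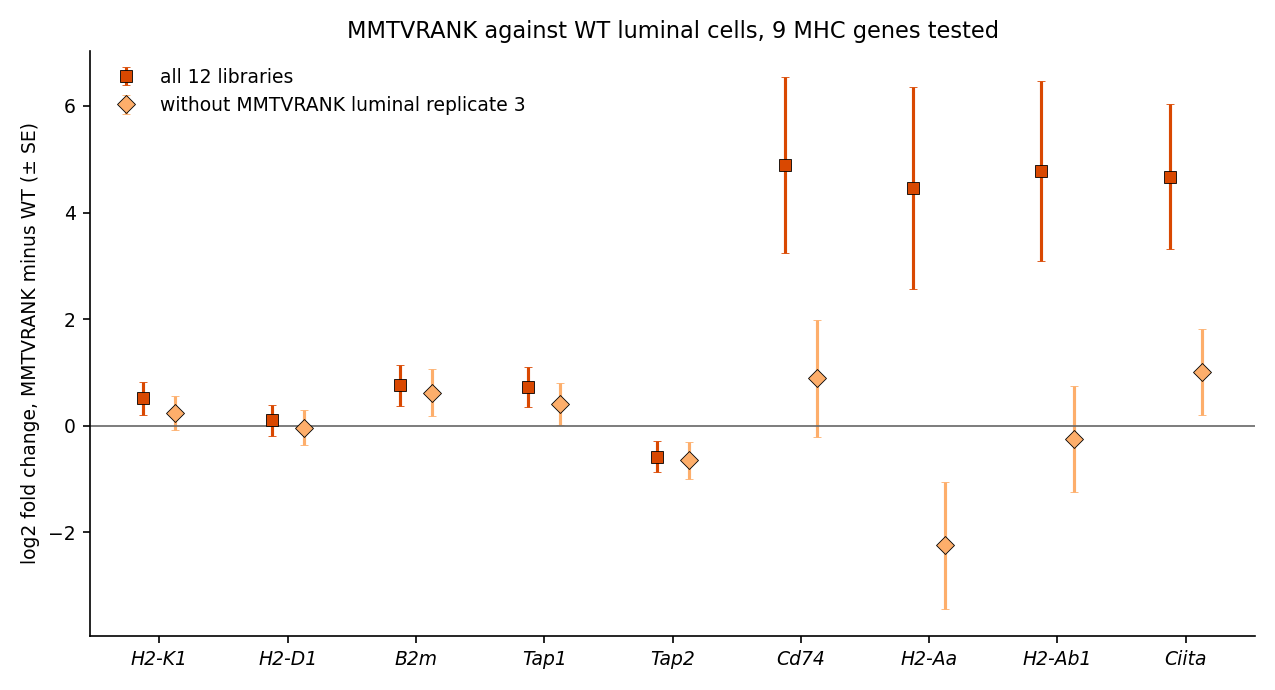
The log2 fold change of MMTVRANK minus WT luminal cells (vertical, bars are ± SE) for the 9 genes tested, with all 12 libraries and without MMTVRANK luminal replicate 3. The 4 class II values lie between 4.46 and 4.89 with all libraries and between −2.24 and 1.00 without it, and the class I values lie between −0.64 and 0.76 in both.

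In basal cells none of the 9 genes was called, against 0.00548% of all genes, and none had an unadjusted p under 0.05 (5.41% of all genes). Neither limma-voom nor DESeq2 called any, but DESeq2 gave no adjusted p for H2-Aa, H2-Ab1 and Ciita. The values ran from 0.01 for H2-D1 (SE 0.29) to 0.65 for Cd74 (SE 1.42), each with an adjusted p of 1. None of the 9 had groups that did not overlap, where 6.6% of all genes lay fully above and 4.52% fully below. H2-K1 had 0.02 and H2-D1 0.01, which are −0.0084 and −0.019 with RLE size factors in place of TMM. MMTVRANK basal replicate 3 was the highest basal library for Cd74, H2-Aa, H2-Ab1 and Ciita, and without it Cd74 had −0.61, H2-Aa −0.77 and H2-Ab1 −1.24. Its pan-leukocyte sum, 100.04 CPM, was also the highest of the basal libraries.

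The difference between the luminal and basal genotype effects was tested directly. None of the 9 genes was called, where 0.00548% of all genes were, and 1, Ciita (4.10, SE 1.73), had an unadjusted p under 0.05, against 7.73% of all genes. Without MMTVRANK luminal replicate 3 the Ciita value was 0.46 (SE 1.02, unadjusted p = 0.659 by edgeR). DESeq2 and limma-voom called none, but DESeq2 gave no adjusted p for H2-Aa, H2-Ab1 and Ciita. In the other class I pathway list 0 of 25 genes were called in either population, with medians of 0.26 in luminal and 0.11 in basal cells. In the other class II pathway list 0 of 14 were called (medians 0.67 and 0.31), as were 0 of 24 of the interferon gamma genes (0.54 and 0.04). Over all genes the medians were 0.03 and 0.004. Without MMTVRANK luminal replicate 3 the luminal medians were 0.15 for the class I list and −0.05 for the class II list. The interferon gamma list then had 0.43 and all genes −0.03, and again 0 genes of the lists were called. The interferon gamma gene Gbp4, a guanylate-binding protein, had the smallest p of these lists, standing in luminal cells at 2.27 ± 0.492 CPM in WT against 10.4 ± 5.24 CPM with the transgene (2.19, SE 0.57, adjusted p = 0.128).

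The genes whose pattern was most like that of a member were read over the 12 libraries among 11120 genes, by Pearson's r of log2 CPM. For Cd74 they were Vgll4 (r = 0.889), Bcl9 (r = 0.878), Ptprc (r = 0.866), Ctss (r = 0.858) and Ighm (r = 0.856). In MMTVRANK luminal replicate 3, Vgll4 and Bcl9 stood at 93.9 and 116.8 CPM. Ptprc, the class II protease gene Ctss and Ighm stood there at 48.7, 86.6 and 41.8 CPM. The group means of Vgll4 lay between 50.2 and 68.0 CPM and those of Bcl9 between 39.3 and 66.0 CPM. Those of the other 3 genes lay between 0.419 and 30.6 CPM. For Tap1 they were Tma7 (r = 0.897), the interferon-induced ubiquitin-like gene Ubd (r = 0.888), Fxyd5 (r = 0.879), Bcl10 (r = 0.863) and Parp14 (r = 0.861). Ubd went from 1.51 CPM in WT luminal to 41.6 CPM in MMTVRANK luminal cells on average, with 85.6 CPM in replicate 3. These r share the same libraries and populations and are given as descriptions.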

How the data were processed

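Per the labels' protocols, cells were sorted live on CD24 and CD49f and libraries made with the SMARTer Stranded Pico kit. The submitters' processing notes name STAR 2.6.1b, Subread 1.5 and GRCm38.p6. The deposited values are raw counts per gene symbol from featureCounts 1.5.2 on GENCODE M17 by largest exon overlap, with no strand or multi-mapping option, per the file headers. The exon length column of the authors' table gave CPM per kilobase.

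Genes were kept by filterByExpr of edgeR 4.0.16 by group (count minimum 10), which left 18236 genes, scaled by TMM and fitted in 1 robust quasi-likelihood model over 12 libraries and 4 groups in R 4.3.3, with Benjamini-Hochberg adjustment over all genes and a threshold of 0.05. Each SE is the absolute log2 fold change divided by the root of its quasi-likelihood F. Groups followed the titles. Alternatives were RLE size factors, no filter, DESeq2 1.42.0, limma-voom (limma 3.58.1), the replicate number as a block, each library left out, both WT replicate 2 libraries left out, and each population alone.

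The members and gene lists were chosen with earlier results of these data known. The 10 members were named whatever their values, as were up to 4 genes of each other list with the smallest p and the 5 genes most like Cd74 and Tap1 with an average log2 CPM of 2 or more. Same-numbered libraries were checked for pairing by the correlation of their deviations from group means over 9330 genes. For numbers 1, 2 and 3 it was 0.560, 0.115 and 0.418 between luminal genotypes, 0.291, 0.168 and 0.380 between WT populations and 0.258, 0.151 and 0.114 between MMTVRANK populations, all over 0.1, so the numbers were read as pairs there, from the data alone. Between basal genotypes it was 0.405, −0.0467 and 0.160, and they were not. No 2 of the 12 libraries were duplicates (66 pairs, chi-square per degree of freedom 25.5 or more). In a test on simulated data for WT luminal against basal with 18236 genes, 45% of 100 genes changed 4-fold and all of 100 changed 16-fold were recovered.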

Additional observations from a re-analysis of the deposited data

How the results depend on the processing

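The 8 class I calls between luminal and basal cells kept their direction and passed under every alternative run, except H2-K1 in WT without both WT replicate 2 libraries (1.24). Of 857 values of single members under alternatives, 768 kept direction and side of the threshold, and 67 changed sign, on either side of the threshold. With direction kept, 21 passed newly and 1 no longer passed. Ciita in MMTVRANK, luminal minus basal, is among the 67 and also passed newly without MMTVRANK luminal replicate 3 and without the third libraries. DESeq2, run without its own filter on low counts, gives no adjusted p for H2-Aa, H2-Ab1 and Ciita. These 3 genes held 3274, 2916 and 456 counts in MMTVRANK luminal replicate 3. Separately, members with few counts (Ciita at 2 to 11 in WT luminal libraries) are limited by depth. The cause of the changes was not tested.

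Among counts, the luminal genotype comparison called 46 genes, and 1353 with no filter (5 of them members), 753 with DESeq2 (1 member), 29 with limma-voom, 103 with the replicate block, 81 without both WT replicate 2 libraries, 7 in luminal libraries alone and 3 to 93 with 1 library left out. The basal comparison called 1, and 349 with no filter, 55 with DESeq2, 0 with limma-voom, 4 without both WT replicate 2 libraries, 0 in basal libraries alone and 0 to 8 with 1 library left out. The difference of effects called 1, and 776 with no filter (4 members), 130 with DESeq2, 0 with limma-voom, 0 with the replicate block, 3 without both WT replicate 2 libraries and 0 to 7 with 1 library left out. In MMTVRANK, luminal against basal, 8 members were called with no filter, where 6091 of all genes were. With no filter all symbols with a count were tested, and 15946 of the 53735 had none. The members called numbered 4 to 5 with 1 library left out in either genotype, and 0 in the genotype comparisons. Luminal against basal, all genes called then numbered 5776 to 6898 in WT and 4612 to 6415 in MMTVRANK.

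The sign changes, apart from those with 1 library left out, were as follows. In luminal cells by genotype, leaving out the third library of every group, an alternative chosen after seeing that it held the most Cd74, gave −0.12 for H2-D1, −1.13 for H2-Aa and −0.15 for H2-Ab1, with 9 genes called. In basal cells H2-K1 and H2-D1 had −0.0084 and −0.019 with RLE and with DESeq2, −0.0091 and −0.019 in basal libraries alone, and −0.044 and −0.031 with limma-voom. H2-Ab1 had −0.18 with limma-voom, H2-D1 −0.018 without both WT replicate 2 libraries, and H2-K1 and H2-Ab1 −0.045 and −1.09 without the third libraries. In WT, luminal against basal, H2-Aa had 0.083 with limma-voom, 0.0063 without both WT replicate 2 libraries and 0.032 without the third libraries. In MMTVRANK, Ciita had −1.22 with limma-voom and −2.78 (adjusted p = 0.0459) without the third libraries, where H2-Aa had −1.50. The difference of effects had −0.13 for H2-D1 and −1.53 for H2-Aa without the third libraries, with 0 genes called.

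With the replicate number as a block, that is with pairing by number, H2-K1, H2-D1 and H2-Ab1 had −0.021, −0.0093 and −0.53 by genotype in basal cells, where the numbers were not read as pairs. Ciita had −0.53 in MMTVRANK (luminal minus basal), and its WT value passed. The block changed no other call of a member.

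With 1 library left out, the values by genotype in luminal cells ran from −0.036 to 0.17 for H2-D1, −2.24 to 5.55 for H2-Aa and −0.24 to 5.30 for H2-Ab1. In basal cells they ran from −0.23 to 0.33 for H2-K1, −0.23 to 0.31 for H2-D1, −0.16 to 0.50 for B2m, −0.21 to 0.50 for Tap1, −0.034 to 0.54 for Tap2, −0.61 to 1.91 for Cd74, −0.77 to 1.83 for H2-Aa and −1.24 to 0.96 for H2-Ab1. Luminal minus basal ran from −1.68 to 0.14 for Cd74 and −1.18 to 1.17 for H2-Aa in WT, and in MMTVRANK from −0.84 to 4.39 for Cd74, −2.87 to 5.20 for H2-Aa, −1.34 to 5.38 for H2-Ab1 and −2.90 to 1.30 for Ciita. The difference of effects ran from −0.20 to 0.34 for H2-D1, −2.80 to 5.23 for H2-Aa and −0.71 to 6.01 for H2-Ab1. The pan-leukocyte sum, MMTVRANK minus WT, was 94.8 CPM in luminal cells (−2.09 to 144) and 14.6 CPM in basal cells (−3.50 to 23.6), below 0 without MMTVRANK replicate 3 of that population.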

Other observations

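In MMTVRANK luminal replicate 2, which held 6 Ptprc counts and 2 Ighm counts, Cd74 stood at 23.97 CPM. This was above the 3.06 CPM of replicate 1 and the 4.42 to 11.7 CPM of WT luminal libraries. The dendritic cell sum of that library was 16.5 CPM, above replicate 1 (4.76 CPM) and WT luminal libraries (4.64 to 10.8 CPM). Its macrophage and monocyte sum was 186 CPM, against 169 CPM in replicate 1 and 116 to 310 CPM in WT luminal libraries. H2-Aa, at 0.959 CPM, was not above the WT luminal libraries there. In WT basal replicate 3 Cd74 stood at 33.9 CPM beside a B cell sum of 27.1 CPM and a pan-leukocyte sum of 51.9 CPM. The other WT basal libraries had B cell sums of 1.86 and 3.39 CPM and pan-leukocyte sums of 50.6 and 45.5 CPM. WT basal replicate 3 also had a macrophage and monocyte sum of 61.8 CPM (the others 27.6 and 20.2). Its T and NK cell sum was 20.0 CPM (the others 7.73 and 9.36), and its dendritic cell sum 65.1 CPM (the others 95.8 and 54.3). The part of leukocyte RNA in these Cd74 values was not tested.

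Nlrc5 ranged from 15.4 to 183 CPM over the WT basal libraries and from 14.4 to 52.9 CPM over the WT luminal ones, while H2-K1, H2-D1, B2m and Tap2 were higher in all WT luminal libraries than in all WT basal ones.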
